A study of Mus musculus with 8 samples.

Results

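Golgins are long coiled-coil proteins that sit on the membranes of the Golgi apparatus and capture passing vesicles, and the Golgi reassembly and stacking proteins (GRASPs) link its flattened sacs to one another and to the golgins. Each golgin marks a particular face or rim of the Golgi, so that the set as a whole keeps the glycosylation enzymes, MGAT2 among them, in their successive sacs. In male germ cells the Golgi also builds the acrosome of the spermatid, and loss of *Golga3* in mice leads to male sterility. The data described here are the transcripts of 10 such genes, *Golga1*, *Golga2*, *Golga3*, *Golga4*, *Golga5*, *Golgb1*, *Gorasp1*, *Gorasp2*, *Gcc1* and *Gcc2*, which were found by gene symbol among the 55357 genes of the deposited table. All 10 were measured, and all 10 were among the 20187 genes that reached 1 TPM (transcripts, corrected for length and scaled to the same total in every library) in at least 1 library. The lowest TPM of any of them in any library was 10.45, so that no member passed this filter through 1 genotype alone.

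RNA was from germ cells of 15-day C57BL/6 males. The control group was 4 *Mgat2*[F/F] males, whose floxed *Mgat2* alleles remain intact because they carry no Cre transgene. The cKO group was 4 *Mgat2*[F/F]:*Stra8*-iCre males, which carry the same floxed alleles and a Cre recombinase driven by the *Stra8* promoter, which becomes active in spermatogonia soon after birth. Each male contributed 1 unstranded, polyA-selected library, so each n is a number of mice.

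The total of expected counts per library was between 12584726 and 15907505. Counts scaled to a common library total with edgeR's TMM factors are given as CPM. For *Mgat2*, the targeted gene, the control mean was 56.4 ± 16.9 CPM and the cKO mean 27.2 ± 10.8 CPM (SD, n = 4 each), with overlapping genotypes and adjusted p of 0.47 from edgeR and 0.025 from DESeq2. Replicate 1 had the highest summed TPM of pachytene and later markers in both genotypes. Only its cKO sum was singled out under the rule of the flagged results below. The summed TPM of 8 markers of pachytene and later germ cells was 2637 in control replicate 1 and between 803 and 1342 in the other controls, and 849 in cKO replicate 1 against 398 to 416 in the other cKO libraries. All 8 of these markers had log2 fold changes below 0, with a median of -1.89, and DESeq2 called *Piwil1* (adjusted p = 0.035) and *Acr* (adjusted p = 0.033), where edgeR called none and gave 3 an unadjusted p under 0.05. The 8 general germ cell markers summed to 2104 to 2569 TPM in control and 1893 to 2174 in cKO libraries. These 8 did not share a direction: 4 had log2 fold changes below 0, and the values ran from -0.44 to 0.33 (median 0.06). Neither edgeR nor DESeq2 called any of them. RNA of other testis cells was present: 8 Sertoli cell markers summed to 1096 to 1382 TPM in control and 1115 to 1405 in cKO libraries, 5 peritubular markers to 386 to 517 and 350 to 660 TPM, 6 Leydig cell markers to 35.85 to 89.65 and 48.6 to 73.8 TPM, and 6 macrophage and endothelial markers to 10.2 to 19.1 and 18.3 to 21.4 TPM. No marker of any of these lists was at 0 in every library. In bulk RNA, fewer cells of a type and less RNA per cell cannot be told apart, and the part of these differences in the results below was not tested. Values on replicates 2 to 4 leave out replicate 1 of both genotypes. The pachytene and later markers still differed there, at 803 to 1342 TPM in control and 398 to 416 TPM in cKO libraries.

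No member was called by edgeR's quasi-likelihood test at an adjusted p of 0.05 over all genes tested. In that test 8 of the 20187 genes were called, 0.0396%. Before adjustment 3 of the 10 members had a p under 0.05, *Golga2*, *Golga3* and *Golga4*, all with lower means in cKO germ cells, where 6.28% of all genes tested were lower at that p. DESeq2 called 1 of the 10, *Golga2*, against 1.86% of the genes for which it gave an adjusted p. Of the 10 log2 fold changes (cKO over control) 8 were below 0, as were 48.6% of all genes tested. The median of the 10 was -0.14, and that of all genes tested was 0.01. Without control replicate 1 the median of the 10 was -0.092, and on replicates 2 to 4 it was -0.069, with 0.0006 and 0.0087 for all genes tested. The changes were small in every case, from -0.26 in *Golga3* to 0.15 in *Golga5*.

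Before the single genes, their levels are set side by side on the TPM scale, which is per transcript length. *Golga4*, a golgin of the trans face, had the most transcripts, 115.2 ± 5.92 TPM (SD, n = 4) in control germ cells. *Gorasp2* (80.3 ± 10.1 TPM) and *Golga2* (66.6 ± 1.34 TPM) followed, with overlapping control ranges. Below them were *Golgb1* (51.7 ± 3.55), *Golga5* (49.2 ± 4.67) and *Golga3* (44.9 ± 8.08 TPM), and each of these overlapped its neighbour in the order. The control ranges were also apart between *Golga4* and *Gorasp2* and between *Golga2* and *Golgb1*. A further gap separated *Golga3* from *Gcc2* (28.2 ± 1.60), which was lower in all 8 libraries. *Gcc2*, *Gcc1* (22.5 ± 3.41), *Golga1* (21.7 ± 3.48) and *Gorasp1* (15.6 ± 4.16 TPM) again overlapped from neighbour to neighbour. Between *Golgb1* and *Golga5* even the order depended on the library, with *Golgb1* above *Golga5* in 2 of 8 libraries.

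**Figure D1:**
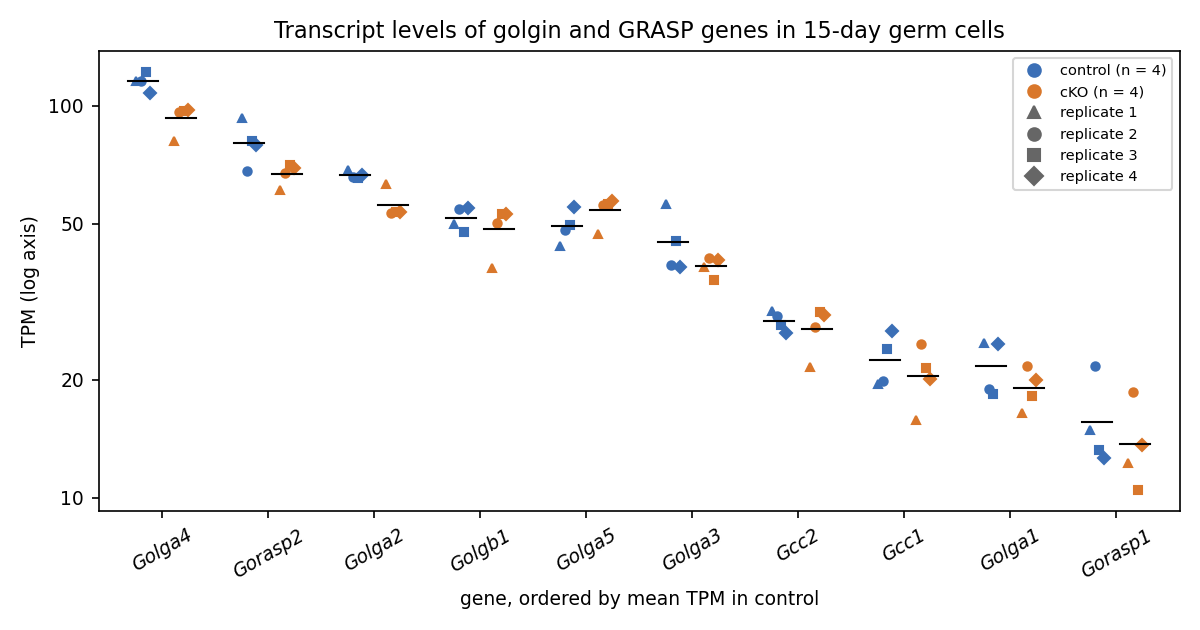
TPM of the 10 genes (log axis) in each of the 4 control (blue) and 4 cKO (orange) libraries, with marker shapes for replicate numbers and a bar for the mean of each genotype. *Golga4* lies highest, at 115.2 TPM in control, and *Gorasp1* lowest, at 15.6 TPM.

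*Golga2* (ENSMUSG00000002546, chromosome 2 of GRCm39, 32177396 to 32197935, forward strand) encodes GM130, the golgin of the cis face, which is held there by the GRASP encoded by *Gorasp1* and binds the vesicle tether p115 and the small GTPase RAB1. Its annotated canonical transcript has 26 exons and 4366 bases. *Golga2* was at 143.7, 137.1, 142.6 and 124.3 CPM in control replicates 1 to 4. In the cKO replicates it was at 119.8, 116.2, 114.0 and 110.9 CPM. Every cKO library was below every control library, which was so for 3.03% of all genes tested, and the closest pair was control replicate 4 and cKO replicate 1. The log2 fold change was -0.25 (standard error 0.07, 95% interval -0.40 to -0.10), a cKO level of 0.842 of control. *Golga2* was 209th of the 20187 genes by p in edgeR (unadjusted p = 0.00355, adjusted p = 0.34). An exact permutation test over the 8 libraries gave p = 0.0286, two-sided, the smallest that 4 against 4 can give. Any gene whose genotypes do not overlap gets this value, so it adds nothing to the separation above. DESeq2, the test that the study itself used, put the adjusted p of *Golga2* at 0.048, with a log2 fold change of -0.26. This gene is on the list that the study selected from these same libraries, so its direction here is not independent of that list.

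*Golga2* was also the member whose difference moved least when replicate 1 of both genotypes was set aside. On replicates 2 to 4 its log2 fold change was -0.25, with an adjusted p of 0.023 from edgeR, in a comparison where 4.24% of all genes tested were called. Without control replicate 1 alone the adjusted p of *Golga2* from edgeR was 0.49, and without cKO replicate 1 alone it was 0.19. The p on replicates 2 to 4 thus depends on leaving out both libraries. In TPM the control libraries were at 68.47, 65.91, 65.42 and 66.51 and the cKO libraries at 63.17, 53.05, 53.62 and 53.41, so that the genotypes did not overlap on this scale, as for 3.39% of all genes tested. Control values spread little (SD 1.34 TPM), and cKO replicate 1 lay closer to the controls than to the other cKO libraries.

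*Gorasp1* (ENSMUSG00000032513, chromosome 9, 119753053 to 119766686, reverse strand) encodes GRASP65, the partner of GM130 on cis membranes. The 4 controls had 35.5, 30.5, 27.3 and 28.5 CPM. For the cKO libraries the values of *Gorasp1* were 29.2, 27.4, 24.7 and 23.5 CPM. Control replicate 1 was the highest and cKO replicates 3 and 4 lay below every control, but cKO replicates 1 and 2 fell within the control range. The log2 fold change of *Gorasp1* was -0.21 (standard error 0.12, 95% interval -0.47 to 0.04, adjusted p = 0.62 from edgeR). On replicates 2 to 4 it was -0.19.

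*Gorasp2* (ENSMUSG00000014959, chromosome 2, 70491800 to 70544087, forward strand) encodes GRASP55, the paralog on medial membranes. It was at 98.4, 74.1, 82.2 and 79.0 CPM in control and 67.6, 75.6, 80.1 and 78.6 CPM in cKO replicates 1 to 4. In CPM the library of control replicate 1 was above all others and that of cKO replicate 1 below, and replicates 2 to 4 of the genotypes overlapped. For *Gorasp2* the log2 fold change was -0.15 over all libraries (standard error 0.10, adjusted p = 0.68 from edgeR) and -0.01 on replicates 2 to 4. On the TPM scale *Gorasp2* was at 92.66, 68.1, 81.18 and 79.21 in control and 61.0, 67.12, 70.54 and 69.39 in cKO libraries, and the genotypes overlapped through control replicate 2. The log2 difference with limma on log2(TPM + 1) was -0.25 (unadjusted p = 0.035, adjusted p = 0.51), larger than in CPM. By TPM *Gorasp2* had 3.14 to 6.26 times the transcripts of *Gorasp1* in control and 3.60 to 6.75 times in cKO libraries. The ratio of *Golga2* to *Gorasp1* was 3.04 to 5.26 in control and 2.84 to 5.17 in cKO, again overlapping.

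Giantin and the product of *Golga5* are golgins that span the Golgi membrane. *Golgb1* (ENSMUSG00000034243, chromosome 16, 36695502 to 36753447, forward strand) encodes giantin, a very long golgin, and its canonical transcript has 11001 bases. Its mean was 288.4 ± 28.4 CPM in the controls and 285.7 ± 33.0 CPM in the cKO group (SD, n = 4 each), with replicate 1 the lowest library of both genotypes. The log2 fold change of *Golgb1* was -0.01, and its 95% interval, -0.23 to 0.20, reaches from 0.855 to 1.15 of the control level.

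*Golga5* (ENSMUSG00000021192, chromosome 12, 102435365 to 102464292, forward strand) encodes the membrane-anchored golgin that tethers vesicles moving between Golgi sacs. *Golga5* was at 74.7, 78.2, 81.8 and 86.5 CPM in the 4 controls. The cKO libraries were at 79.5, 92.3, 94.2 and 90.3 CPM, and those of replicates 2 to 4 were above every control. The log2 fold change of *Golga5* was 0.15 (standard error 0.08, 95% interval -0.03 to 0.32, adjusted p = 0.62 from edgeR), the highest of the 10 members. It was 0.17 on replicates 2 to 4 (adjusted p = 0.25 from edgeR).

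The expected counts of *Golga2* were also divided by those of *Golga5* within each library, which removes the normalization between libraries. The pair was picked after its values were seen, and no test was made. There were 1.92, 1.75, 1.74 and 1.44 *Golga2* counts per *Golga5* count in control replicates 1 to 4. The cKO replicates had 1.51, 1.26, 1.21 and 1.23. Control replicate 4 was below cKO replicate 1, so the genotypes overlapped by that pair of libraries.

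*Golga3* (ENSMUSG00000029502, chromosome 5, 110324420 to 110375671, forward strand) encodes a golgin of the cis and medial Golgi. Its control libraries were at 183.2, 128.3, 156.1 and 124.4 CPM, the widest spread of any member relative to its mean. In cKO germ cells *Golga3* was at 128.5, 124.1, 121.2 and 120.0 CPM. Control replicates 1 and 3 were high and control replicates 2 and 4 lay within the cKO range. The log2 fold change was -0.26 (standard error 0.11, 95% interval -0.50 to -0.02, unadjusted p = 0.037 and adjusted p = 0.53 from edgeR) and -0.16 on replicates 2 to 4.

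**Figure D2:**
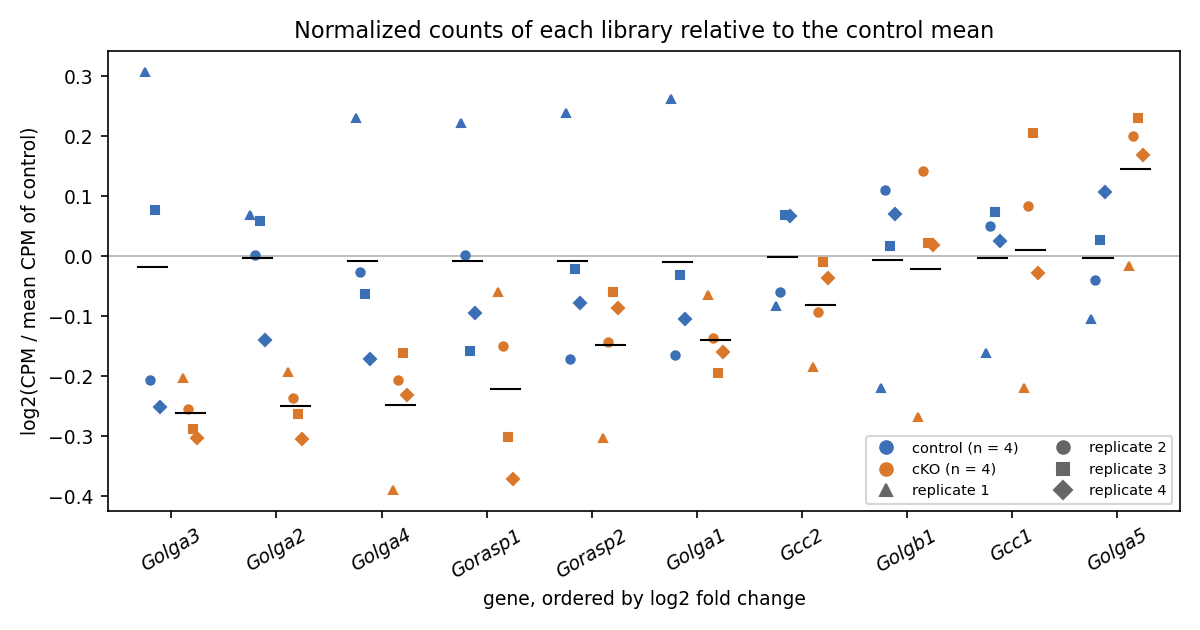
Normalized counts of each library divided by the control mean, on a log2 scale, for the 10 genes ordered by fold change, with blue for control and orange for cKO, shapes for replicate numbers and a bar for the mean of each genotype. On this CPM scale *Golga2* is the 1 gene where all 4 cKO libraries lie below all 4 controls, and control replicate 1 is the highest library in *Golga1*, *Golga2*, *Golga3*, *Golga4*, *Gorasp1* and *Gorasp2*.

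The remaining 4 members share a GRIP domain, the carboxy-terminal module by which golgins attach to the trans-Golgi network, in *Golga1* and *Golga4* through the small GTPase ARL1. *Golga4* (ENSMUSG00000038708, chromosome 9, 118335261 to 118411591, forward strand) was at 361.0, 302.3, 294.9 and 273.4 CPM in control. In cKO replicates 1 to 4 *Golga4* was at 235.0, 267.0, 275.3 and 262.2 CPM. Control replicate 1 was the highest of all libraries and cKO replicate 1 the lowest, and control replicate 4 was just below cKO replicate 3. The log2 fold change of *Golga4* was -0.24 (standard error 0.09, 95% interval -0.44 to -0.05, unadjusted p = 0.019 and adjusted p = 0.46 from edgeR). It was -0.11 on replicates 2 to 4 (adjusted p = 0.40 from edgeR). In TPM the genotypes of *Golga4* did not overlap, with 107.51 to 121.97 in control and 81.23 to 97.37 in cKO libraries, beside 3.39% of all genes tested that were lower in every cKO library on that scale.

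*Golga1* (ENSMUSG00000026754, chromosome 2, 38902437 to 38955727, reverse strand) ranged from 40.1 to 53.8 CPM in control and from 39.2 to 43.0 CPM in cKO libraries. Its log2 fold change was -0.14 (95% interval -0.37 to 0.09), and -0.06 on replicates 2 to 4, the highest library being control replicate 1. *Gcc1* (ENSMUSG00000029708, chromosome 6, 28413786 to 28428389, reverse strand) ranged from 47.5 to 55.9 CPM in control and from 45.5 to 61.1 CPM in cKO. *Gcc2* (ENSMUSG00000038039, chromosome 10, 58091242 to 58141421, forward strand) ranged from 84.0 to 93.3 CPM in control and from 78.3 to 88.4 CPM in cKO. The log2 fold changes were 0.02 for *Gcc1* (95% interval -0.21 to 0.24, and -0.13 with limma on log2(TPM + 1)) and -0.08 for *Gcc2* (95% interval -0.24 to 0.08). Of the GRIP golgins only *Golga4* had an interval that did not include 0.

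**Figure D3:**
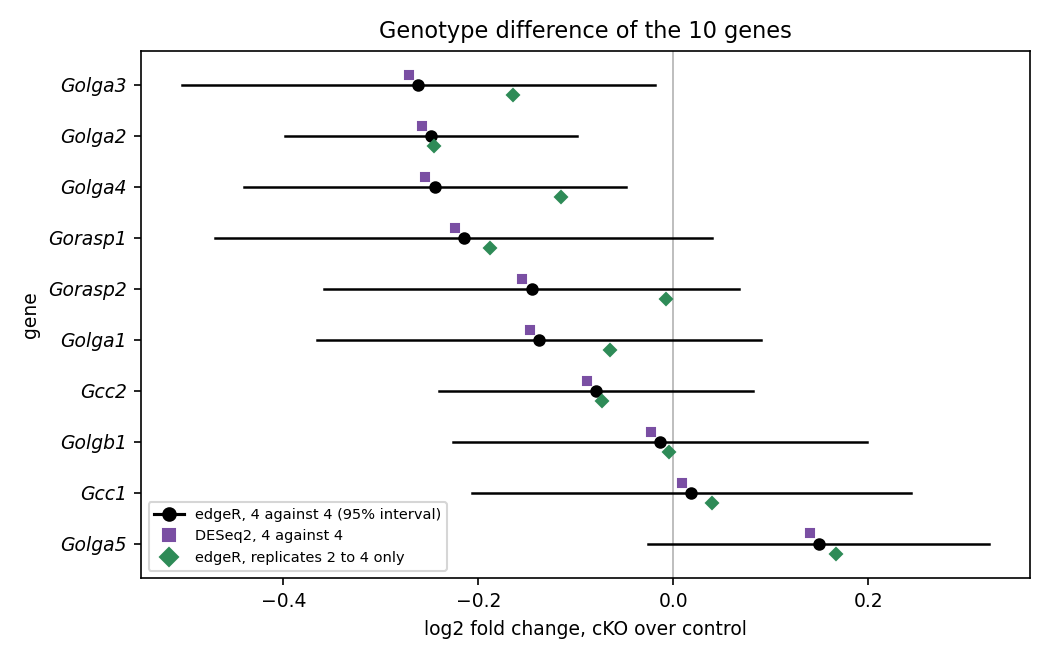
Log2 fold change (cKO over control) of the 10 genes from edgeR with its 95% interval (black), from DESeq2 (purple squares) and from edgeR on replicates 2 to 4 (green diamonds). The value of *Golga2* stays at -0.25 without replicate 1, whereas that of *Golga4* goes from -0.24 to -0.11 and that of *Gorasp2* from -0.15 to -0.01.

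Expected counts and TPM together hold a further readout. RSEM obtains TPM by dividing reads by the effective length of the transcripts it assigns them to, so counts divided by TPM give, within a library, the mean effective length of the transcripts in use. These values were scaled by the median over the 8818 genes with at least 10 TPM in all libraries and by the mean of each gene. The SD over the 8 libraries was 0.0447 for the median gene and 0.197 for *Gorasp1*, which was in the 97.6th percentile. The relative length of *Gorasp1* was 0.716 in control replicate 2, 0.734 in cKO replicate 2 and 0.879 in cKO replicate 4, and between 1.03 and 1.16 in the other 5 libraries. Thus the highest TPM of *Gorasp1*, 21.68 in control replicate 2, went with 30.5 CPM, while control replicate 1 had 35.5 CPM and 14.85 TPM. Its protein-coding transcripts range from 2601 to 3916 bases in the annotation. In *Golga2* the low value was cKO replicate 1, at 0.891, against 0.935 to 1.06 in the others, and *Golga5* hardly varied (SD 0.0112). The ranges of the genotypes overlapped in all 10 genes, and whether RSEM's division of reads between transcripts was right in these libraries was not tested.

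**Figure D4:**
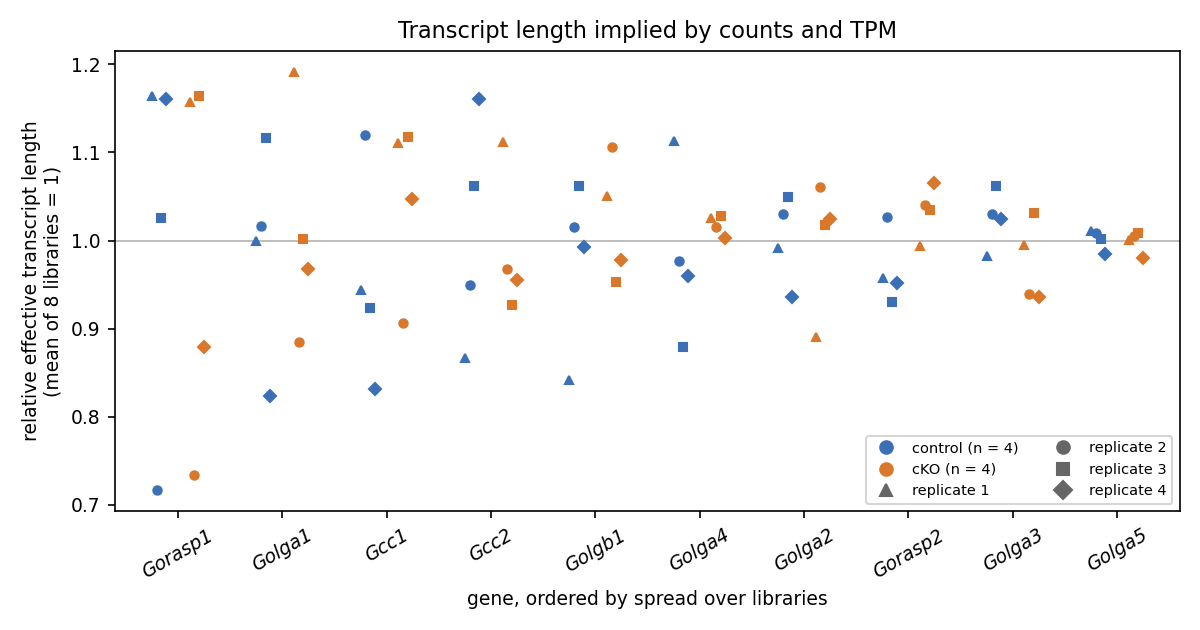
Mean effective transcript length implied by expected counts and TPM, relative to the mean of the 8 libraries of each gene, with blue for control and orange for cKO and shapes for replicate numbers. *Gorasp1* varies most, with replicate 2 of both genotypes near 0.72 and 0.73, and *Golga5* least.

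Because the libraries were unstranded, reads where 2 genes overlap on opposite strands cannot be told apart. *Wdr48* covers 2551 bases of *Gorasp1*, 39.8% of its exonic sequence, and the RSEM counts of *Gorasp1* were not whole in any of the 8 libraries. *Wdr48*, a cofactor of deubiquitinating enzymes, had a log2 fold change of -0.25 (standard error 0.19), close to the -0.21 of *Gorasp1*. *Tlk1* overlaps 22.4% of the exonic sequence of *Gorasp2* (log2 fold change of *Tlk1* 0.09), and *Arpc5l* 15.9% of that of *Golga1* (log2 fold change of *Arpc5l* -0.01). For *Golga2* the largest such overlap, with *Swi5*, was 1.47%. *Rpl36al* overlaps 11.6% of the exonic sequence of *Mgat2*. The part of these overlaps in the values of the members and of *Mgat2* was not tested.

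By canonical start, 2 members begin close to a protein-coding gene that runs the opposite way. The members' annotated spans given above reach past these starts, so the stretch between each pair of starts lies inside the member's span. The canonical starts of *Golga2* and of *Swi5*, which encodes a recombination repair factor, are 175 bp apart, and those of *Gorasp1* and *Ttc21a*, which encodes a protein of intraflagellar transport, are 31 bp apart. The bases between the starts are shown here because each pair shares them, read from GRCm39 on the strand of the member, 5′ to 3′, with a CCAAT box (CCAAT on either strand) in capitals.
*Golga2* and *Swi5*, chr2:32178088-32178261, forward strand: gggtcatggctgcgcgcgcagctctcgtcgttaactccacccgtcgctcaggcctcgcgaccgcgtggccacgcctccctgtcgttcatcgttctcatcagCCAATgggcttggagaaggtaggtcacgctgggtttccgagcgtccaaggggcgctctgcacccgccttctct
*Gorasp1* and *Ttc21a*, chr9:119766642-119766671, reverse strand: gctggcctgttgctaagaactgtgacatcc
The interval of *Golga2* is 64.9% G or C and holds 1 CCAAT box, and that of *Gorasp1* is 53.3% G or C and holds none. *Swi5* averaged 156.5 ± 22.7 CPM in the controls and 131.2 ± 10.0 CPM in the cKO group (SD, n = 4 each). Its log2 fold change, -0.25 with a standard error of 0.10, equalled that of *Golga2* to 2 decimals, although its genotypes overlapped (edgeR adjusted p = 0.49). *Ttc21a* averaged 15.2 ± 8.70 CPM in the controls and 6.58 ± 2.20 CPM in the cKO group (SD, n = 4 each). Its log2 fold change was -1.21, with a standard error of 0.39 and adjusted p of 0.44 from edgeR and 0.052 from DESeq2, beside -0.21 for *Gorasp1*. Neither pair was tested for a difference between its genes. In RefSeq promoters (GRCm38.p6; 250 bases before the start), which matched 8 of the 10 members, 9 promoters belonged to these 8 genes. A CCAAT box was present in 3 of the 9, those of *Golga2*, *Golga3* and *Gorasp1*, and in 33.8% of all 32851 promoters. A GC box (GGGCGG on either strand) was present in 5 of the 9 and in 32.7% of all promoters.

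The golgins and GRASPs work with other Golgi machinery, and 5 lists of such genes were read from the same fit, in which no gene of any of them was called by edgeR or DESeq2. Other tethers and matrix proteins, among them *Uso1*, which encodes p115, and *Blzf1*, which encodes the partner of GRASP55, had 13 of 14 genes tested (*Golga7b* was below the filter) and a median log2 fold change of -0.02. They ran from *Tmf1* (-0.21) to *Bicd1* (0.33), and 0 of 13 had an unadjusted p under 0.05 in edgeR. *Uso1* itself was at 0.05 and *Blzf1* at -0.04. All 12 subunits of the COG and GARP complexes, which tether vesicles in retrograde transport, were tested, and 10 of the 12 were below 0 (median -0.08, and -0.036 without control replicate 1, from *Cog6* at -0.33 to *Cog2* at 0.07), with 0 at an unadjusted p under 0.05.

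In the small GTPases and their recruiters the median was 0.04, from *Sys1* (-0.09) to *Rab1a* (0.14), and 5 of 16 were below 0. *Rab1a* and *Rab6a* (0.12), whose products bind golgins, were higher in every cKO library than in every control library, as were 2.47% of all genes tested, with adjusted p of 0.57 and 0.59 from edgeR. The same lack of overlap, higher in cKO, held for *Copz2* of the COPI coat and *Ykt6* of the SNAREs. *Arl1*, whose product recruits GRIP golgins, was at 0.04. The COPI coat had 8 of 9 genes above 0 (median 0.09, from *Copg2* at -0.04 to *Copz2* at 0.57). *Copz2*, at 3.51 CPM in control, was the 1 gene of these lists with an unadjusted p under 0.05 in edgeR (0.023, adjusted p = 0.48), and the DESeq2 adjusted p was 0.30. Golgi SNAREs had a median of 0.00, from *Vamp4* (-0.42) to *Ykt6* (0.11), and 5 of 11 were below 0. None of the differences between lists was tested.

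**Figure D5:**
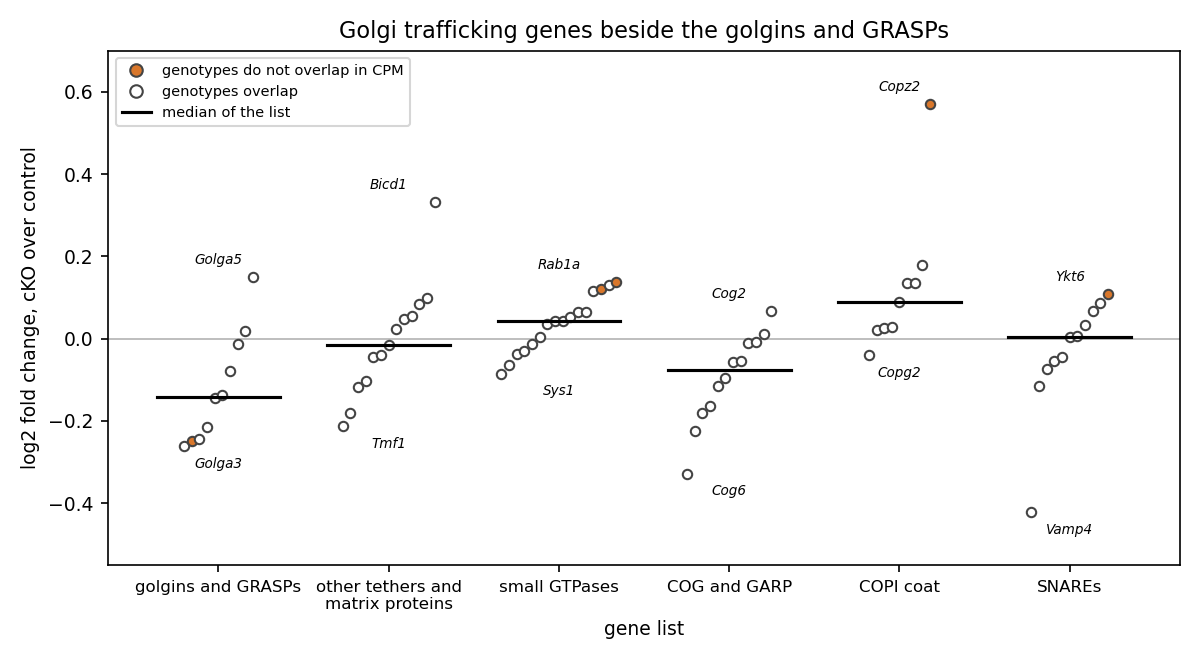
Log2 fold change (cKO over control, edgeR) of each tested gene in 6 lists, with a bar for the median and filled points where the genotypes did not overlap in CPM. The median of the 10 golgins and GRASPs is -0.14 (-0.069 on replicates 2 to 4), and the other lists have medians from -0.08 (COG and GARP, -0.045 on replicates 2 to 4) to 0.09 (COPI coat).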

How the data were processed

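According to the paper's methods and the submitters' processing notes, reads were aligned to mm39 (GRCm39) with STAR 2.7.9a and quantified with RSEM 1.3.3 against Ensembl gene annotations. The authors deposited RSEM expected counts per gene, not normalized between libraries. TPM, also deposited, is RSEM's transcript abundance corrected for length and scaled to the same total in every library. Expected counts were rounded (15.5% of those tested were not whole), genes with TPM of at least 1 in at least 1 library were kept, and genotypes were compared with edgeR 4.0.16 (TMM, robust quasi-likelihood F-test, Benjamini-Hochberg over all 20187 genes, R 4.3.3). A floor of 3 counts was worth 0.19 to 0.234 CPM, far under every member, and covers counting error only. Standard errors are the absolute log2 fold change divided by the square root of edgeR's F statistic. Intervals are edgeR's log2 fold change with this standard error and the total degrees of freedom, prior plus residual. The paper's own test was DESeq2, with 302 genes at a false discovery rate under 0.05. Alternatives here were DESeq2 1.42.0, other scaling and filters, limma 3.58.1 on log2(TPM + 1) and log2(TPM + 0.1), a replicate block, and fewer libraries. Positions came from GENCODE mouse release 39, a different annotation release from the one used for counting. The members and lists were chosen with earlier results of these data known. Genes named are the members, *Mgat2*, Golgi list genes called by edgeR or DESeq2, the lowest and highest of each Golgi list, and the 3 genes nearest to *Golga2* in profile. *Uso1*, *Blzf1*, *Arl1*, *Rab6a*, *Piwil1*, *Acr*, the overlapping or head-to-head neighbours (starts within 1000 bp), the effective lengths and the *Golga2* to *Golga5* ratio were added after values were seen. The fits were tested on simulated data with known changes.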

Additional observations from a re-analysis of the deposited data

Results flagged for a closer look

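In groups of 4 libraries, a value was singled out where its gap to the nearest other value was above Dixon's 95% critical value as a share of the group's range. Of 78 groups examined 8 had such a value. Chance gives about 1 in 20 for a single group. The groups share the same libraries and in part the same genes, so this share is no reference for the count of 8. Among cKO libraries, replicate 1 stood out in the TPM of *Golga2* (63.17, others 53.05 to 53.62), of *Golga4* (81.23, others 96.03 to 97.37) and of *Golga5* (46.91, others 55.85 to 57.1), and in the ratio of *Golga2* to *Golga5* counts (1.51, others 1.21 to 1.26). The same library stood out in the summed TPM of pachytene and later markers (849, others 398 to 416) and of Sertoli cell markers (1115, others 1376 to 1405). Control replicate 1 stood out in the summed peritubular markers (386 TPM, others 508 to 517), and control replicate 2 in the *Gorasp2* to *Gorasp1* TPM ratio (3.14, others 6.15 to 6.26).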

How the results depend on the processing

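The number of genes called over the whole table, 8 in edgeR, was 302 with DESeq2, 17 with library totals, 35 without an expression filter, 0 with edgeR's own filter on counts (1665 at an unadjusted p under 0.05), 0 with limma on log2(TPM + 1) (1796 unadjusted), 0 on log2(TPM + 0.1) (1869 unadjusted), 855 on replicates 2 to 4, and 0 to 32 in edgeR with each library left out in turn (32 without control replicate 4, and 0 without control replicate 3, cKO replicate 3 or cKO replicate 4, with 1202 to 1465 unadjusted). Members called were 0 in edgeR (3 unadjusted), 1 with DESeq2, 2 with the replicate block and 1 on replicates 2 to 4. *Golga2* was called with log2 fold changes of -0.26 (DESeq2), -0.25 (replicate block, adjusted p = 0.0069 from edgeR) and -0.25 (replicates 2 to 4), and its adjusted p ran from 0.0069 to 0.82 over all alternatives. It stayed between -0.29 and -0.22 with any 1 library left out. *Golga3* was called with the replicate block alone (-0.25, adjusted p = 0.046 from edgeR). The replicate block led to 1464 calls in all, *Cog6* and *Vamp4* among them. The deviations of same-numbered libraries from their group means correlated across genes at 0.53, 0.14, 0.04 and 0.20 for replicates 1 to 4, and the labels name no litter or batch, so the numbers were not taken as pairs, and control replicate 2 correlated more with cKO replicate 4 (0.17). *Gcc1* reversed to -0.13 and -0.14 with limma on log2(TPM + 1) and log2(TPM + 0.1), and ranged from -0.049 to 0.090 with 1 library left out. *Golgb1* ranged from -0.080 to 0.062 in the same way. Left without control replicate 1, *Golga3*, *Golga4*, *Gorasp1*, *Gorasp2* and *Golga1* were at -0.14, -0.16, -0.13, -0.055 and -0.038. The cause of these changes was not tested. *Golga1*, *Golga4*, *Golga5*, *Gorasp1*, *Gorasp2* and *Gcc2* kept their direction and stayed uncalled in the 17 alternatives run. The median of the 10 members moved from -0.14 to -0.092 without control replicate 1 and to -0.069 on replicates 2 to 4. The width of the 95% intervals given above sets the precision that 4 libraries a genotype allow.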

Other observations

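The 3 genes whose centred log2 CPM over the 8 libraries differed least from that of *Golga2* were *Exosc2*, a subunit of the RNA exosome (root-mean-square difference 0.055), *Tra2b*, a splicing regulator (0.055), and *Atf1*, a transcription factor of the cAMP response (0.056), where the median over all other genes was 0.304. Their log2 fold changes were -0.22, -0.19 and -0.19, with adjusted p of 0.59, 0.43 and 0.50 from edgeR and 0.43, 0.089 and 0.25 from DESeq2. The likeness covers these 8 libraries alone and was chosen by closeness, so no test goes with it.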
